A study of Homo sapiens with 5 samples.

Results

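The genes described here are 43 interferon-stimulated genes and regulators of the interferon response, followed in human pigment cells after silencing of BPTF, a subunit of the NURF chromatin remodelling complex. They were chosen by name as 9 functional groups, from the transcription factors that carry the interferon signal to the antiviral effectors. The rule uses no measured value, but it was set with earlier results of these data known. All 43 were found among the 31029 genes listed in every file, and all passed the filter on low counts, which left 17918 genes. The 5 libraries came from 2 groups. The 501Mel group (2 libraries) is a human melanoma cell line, and the Hermes 3A group (3 libraries) is an immortalised line of human melanocytes, the pigment-producing cells from which melanoma arises. Both received lentiviral shRNA against BPTF (shBPTF) and 5 days of selection in puromycin at 3 µg/ml, so both groups share the silencing and the drug. Libraries from cells given a control shRNA were not analysed here. The comparison is therefore of 501Mel cells with Hermes 3A cells, both silenced for BPTF, and does not measure the effect of the silencing. Each group is a single cell line, the labels do not say which shRNA construct each library received, and Hermes 3A cells grew in a medium with added phorbol ester, cholera toxin, stem cell factor and endothelin-1, so the line and its medium cannot be told apart.

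Type I interferons are secreted proteins that a cell makes when it senses viral nucleic acid, and they act through a surface receptor and the kinases JAK1 and TYK2. The kinases activate a transcription factor complex, ISGF3, of which STAT2 and IRF9 are components, and ISGF3 binds a DNA element called the ISRE in the promoters of interferon-stimulated genes. Their products include sensors of viral RNA, enzymes that degrade it or block its translation, membrane proteins that hold back virus entry or release, and further regulators such as IRF7 that amplify the response. Many of these genes are also expressed at a low level without infection, including in tumour cells.

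The promoters of the members carried the letters of the ISRE often. A promoter here is the stretch from 250 bases before to 50 bases after the gene's start in RefSeq (GRCh38.p14), and 32 of the 43 members had one, DDX58 under its current name RIGI. The core searched was GAAA, any 2 bases, then GAAA, on both strands, and it was present in 21 of the 32 members (65.6%), against 4.38% of 27305 genes and 3.57% of 35116 promoters of the same length. Of the members called lower in 501Mel cells (the test is given below), 14 of 19 held it, and of the other members with a promoter 7 of 13 did. The core of the GAS element, bound by STAT dimers, was searched as TTC, any 3 bases, then GAA, and was present in 9 of the 32 (28.1%), against 9.38% of genes and 7.66% of promoters. The 2 cores share letters and a match to one can overlap a match to the other. A match is a description of the letters and not a bound site. Stretches of 60 bases upstream of the start, outside the annotated exons of the members, are shown for 11 members to let the element be read beside the values that follow. Exons of other genes were not checked. They are printed on the strand of the gene, with the ISRE core in capitals, written GAAA or, on the opposite strand, TTTC.
IFI6, chr1:27672251-27672310, minus strand: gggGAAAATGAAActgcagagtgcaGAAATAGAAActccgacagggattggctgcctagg
ISG15, chr1:1013359-1013418, plus strand: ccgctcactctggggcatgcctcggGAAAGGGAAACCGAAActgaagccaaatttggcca
BST2, chr19:17405720-17405779, minus strand: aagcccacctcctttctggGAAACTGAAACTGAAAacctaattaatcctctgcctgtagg
IFI27, chr14:94110603-94110662, plus strand: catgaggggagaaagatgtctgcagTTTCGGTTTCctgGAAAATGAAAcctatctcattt
IFIT1, chr10:89392482-89392541, plus strand: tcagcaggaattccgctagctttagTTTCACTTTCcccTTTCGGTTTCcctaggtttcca
IFIT5, chr10:89414508-89414567, plus strand: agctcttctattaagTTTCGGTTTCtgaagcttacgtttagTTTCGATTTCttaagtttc
IFIT3, chr10:89327816-89327875, plus strand: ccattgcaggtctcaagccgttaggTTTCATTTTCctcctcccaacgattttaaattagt
IFI44, chr1:78649729-78649788, plus strand: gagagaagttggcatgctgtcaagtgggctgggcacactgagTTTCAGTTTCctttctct
IFI44L, chr1:78620259-78620318, plus strand: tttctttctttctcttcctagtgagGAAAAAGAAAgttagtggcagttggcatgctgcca
IFIH1, chr2:162318803-162318862, minus strand: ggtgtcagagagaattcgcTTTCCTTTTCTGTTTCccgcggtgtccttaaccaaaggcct
HERC5, chr4:88456969-88457028, plus strand: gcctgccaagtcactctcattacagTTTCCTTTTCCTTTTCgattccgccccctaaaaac
In BST2, HERC5, IFIH1 and ISG15 2 copies of the core overlapped, so that 3 GAAA or TTTC blocks followed each other. IFI6, IFI27, IFIT1 and IFIT5 held 2 separate copies, and IFI44, IFI44L and IFIT3 a single one. All of these genes except IFIT3 were called lower in 501Mel cells, where 24.1% of all genes tested were. The 11 were limited by the position of the stretch and do not stand for all 21 members with the core. Of those 21, 14 were called lower and 7 were not. A link between the core and the call was not tested.

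The libraries held 30073071 to 43032311 counts, and 99.29% to 99.91% of them fell on genes listed in every file. The targeted gene, BPTF, had 63.4 and 56.9 CPM in 501Mel cells and 48.6, 50.7 and 54.8 CPM in Hermes 3A cells (log2 fold change 0.23, SE 0.139, adjusted p = 0.211), and with no control library here this is no check of the silencing. Of the 7 melanocyte markers, all were detected in both lines, with a summed level of 12261 and 19335 CPM in 501Mel cells and 31686 to 34739.5 CPM in Hermes 3A cells. DCT, a melanin-synthesis enzyme among them, went against the sum, with 1029.9 and 1279 CPM in 501Mel cells and 7.82, 8.68 and 13.2 CPM in Hermes 3A cells (log2 fold change 6.87, SE 0.289, adjusted p = 1.62e-05). The 7 fibroblast markers summed to 19.0 and 4.23 CPM in 501Mel cells and 12.3, 4.42 and 3.80 CPM in Hermes 3A cells. The 5 leukocyte markers that every file listed summed to at most 0.577 CPM in any library, and the 2 keratinocyte markers to at most 0.841 CPM. CPM is the count per gene scaled to a common library total after TMM normalization, and 3 counts, taken as the floor of detection, stood for 0.0672 to 0.101 CPM.

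Most members were lower in 501Mel cells than in Hermes 3A cells. In the edgeR quasi-likelihood fit over all 17918 genes, 28 of the 43 members were called lower in 501Mel cells at an adjusted p of 0.05, 1 was called higher (ISG20) and 14 were not called. Over all genes tested, 24.1% were called lower and 24.3% higher, against 65.1% and 2.33% of the members. The log2 fold change (501Mel minus Hermes 3A) was negative in 38 of 43 members, with a median of -1.91, where the median over all genes was 0.02. In 30 members both 501Mel libraries lay below all 3 Hermes 3A libraries and in 1 both lay above, against 34.0% and 35.7% of all genes. Hermes 3A replicate 1 stood below the other Hermes 3A libraries for most of these genes, as described further on. Without it all 28 calls of lower level held and 4 more members were called lower, which gave 32, and ISG20 stayed the 1 called higher. In 18 members the estimate was lower by at least 3 on the log2 scale, that is 8-fold. Some members, among them OASL, RSAD2 and XAF1, passed the filter on low counts only through Hermes 3A cells, where they were higher. So did IFITM1 (32 and 4 counts in 501Mel cells), IFITM2 (21 and 6), IFI44L (20 and 2) and MX2 (5 and 11). Genes that passed in this way could hardly be called other than lower. OASL, RSAD2 and XAF1 had at most 3 counts in each 501Mel library. All of these but MX2, which was not called, are included in the 28 called lower and in the 18. With at least 10 counts required in every library, 22 of the 35 members tested were called lower, where 3119 of all genes were. The labels do not say whether the libraries of a line came from separate infections, so p-values measure the spread between these libraries, which may be in part technical. In a bulk measurement, fewer cells expressing a gene and less RNA per cell cannot be told apart.

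**Figure D1:**
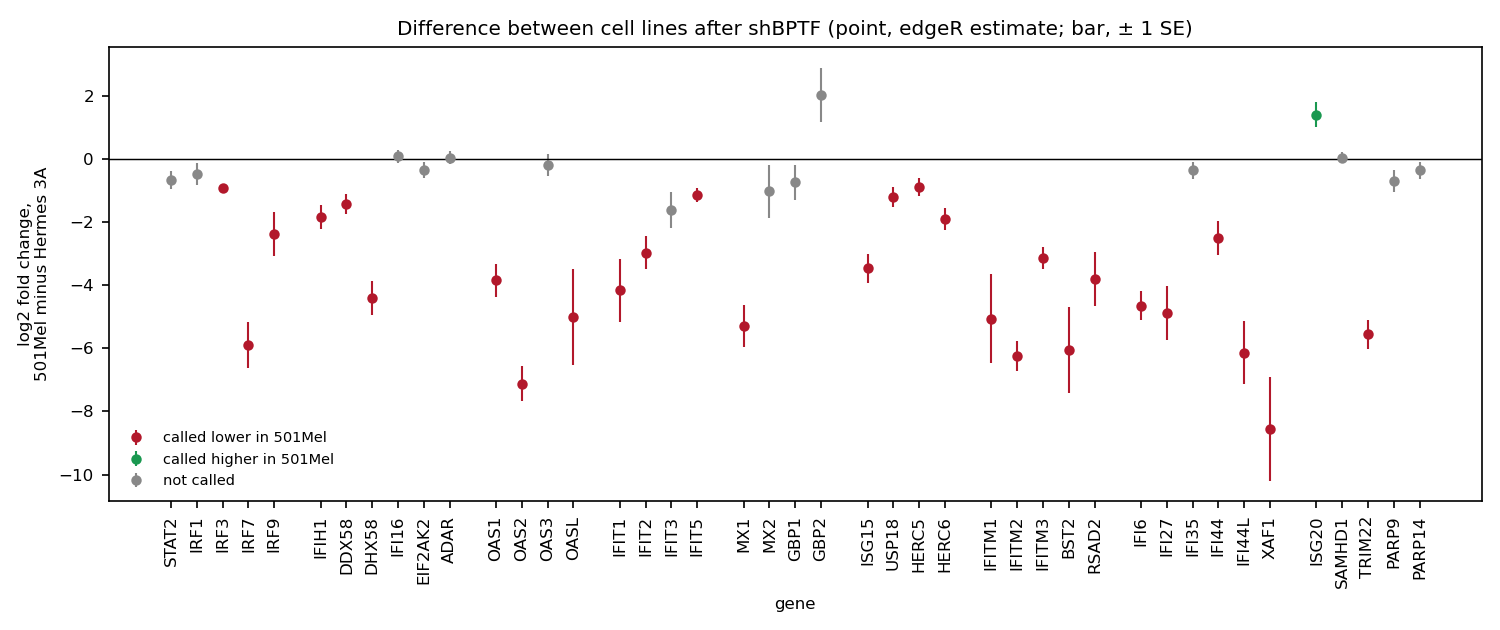
The log2 fold change of each of the 43 members, 501Mel minus Hermes 3A (vertical axis), with genes in their functional groups along the horizontal axis. Points are edgeR estimates and bars 1 SE, coloured by call at an adjusted p of 0.05. Most of the points lie below 0, down to -8.55 for XAF1, and GBP2, at 2.02 and not called, and ISG20, at 1.4 and called, lie highest.

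Among the transcription factors that carry the signal, 3 of 5 were called lower. IRF7, the factor that amplifies interferon production (ENSG00000185507, GRCh38 chr11:612553-615999, minus strand), had 0.358 and 0.494 CPM in 501Mel cells and 8.92, 35.1 and 32.4 CPM in Hermes 3A cells (log2 fold change -5.90, SE 0.733, adjusted p = 0.000833). Every Hermes 3A library lay far above both 501Mel libraries, though the first Hermes 3A library was well below the others. IRF9, the DNA-binding component of ISGF3, had 0.919 and 0.935 CPM in 501Mel cells and 1.43, 7.57 and 5.48 CPM in Hermes 3A cells (log2 fold change -2.38, SE 0.707, adjusted p = 0.0277). Its groups did not overlap, but the first Hermes 3A library lay close to the 501Mel libraries. The call for IRF9 was lost without 501Mel replicate 1 (adjusted p = 0.118), 501Mel replicate 2 (0.101), Hermes 3A replicate 2 (0.0663) or Hermes 3A replicate 3 (0.0621), and 48.4% of its exon bases also belong to the overlapping gene AL136295.5 on the same strand. IRF3, the factor activated directly by nucleic acid sensing, had 25.1 and 26.5 CPM in 501Mel cells and 49.6, 51.7 and 46.8 CPM in Hermes 3A cells. The difference was small and the libraries within each line were close (log2 fold change -0.93, SE 0.147, adjusted p = 0.00223). STAT2, the partner of IRF9, had 137 and 213 CPM in 501Mel cells and 209.5, 364 and 269.7 CPM in Hermes 3A cells and was not called (log2 fold change -0.68, SE 0.281, adjusted p = 0.0807). Its second 501Mel library overlapped the first Hermes 3A library, and it was called without 501Mel replicate 2 (adjusted p = 0.0474) and without Hermes 3A replicate 1 (0.0296), and also without the filter on low counts (0.0235). IRF1, a factor induced by type II interferon in particular, was low in both lines, with 3.56 and 2.6 CPM in 501Mel cells and 3.7, 5.31 and 3.87 CPM in Hermes 3A cells (log2 fold change -0.48, SE 0.351, adjusted p = 0.294).

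The 3 RNA sensors of the RIG-I family were called lower, and the 3 other members of the sensor group were not called. IFIH1 (MDA5) and DDX58 (RIG-I) are helicases that recognise viral double-stranded RNA and signal through MAVS. IFIH1 had 6.88 and 13.6 CPM in 501Mel cells and 24.7, 40.0 and 44.8 CPM in Hermes 3A cells (log2 fold change -1.84, SE 0.376, adjusted p = 0.00638). DDX58 had 5.98 and 5.85 CPM in 501Mel cells and 10.7, 18.0 and 19.2 CPM in Hermes 3A cells (log2 fold change -1.43, SE 0.313, adjusted p = 0.00839). DHX58 (LGP2), the third helicase, which lacks the signalling domain of the others, differed most, with 0.694 and 0.597 CPM in 501Mel cells and 6.7, 17.5 and 17.1 CPM in Hermes 3A cells (log2 fold change -4.40, SE 0.54, adjusted p = 0.000791). In all 3 genes the 501Mel libraries lay below every Hermes 3A library. IFI16, a sensor of DNA, had 169 and 158 CPM in 501Mel cells and 116, 178 and 169 CPM in Hermes 3A cells (log2 fold change 0.08, adjusted p = 0.754). EIF2AK2 (PKR), the kinase that stops translation on binding double-stranded RNA, had 109.9 and 109.9 CPM in 501Mel cells and 96.5, 151 and 177 CPM in Hermes 3A cells. The first Hermes 3A library of EIF2AK2 was below both 501Mel libraries (log2 fold change -0.36, adjusted p = 0.257), and without it the gene was called lower (log2 fold change -0.60, adjusted p = 0.0130). ADAR, the enzyme that edits adenosine in double-stranded RNA, was abundant in both lines, with 515 and 566 CPM in 501Mel cells and 405, 568 and 605 CPM in Hermes 3A cells, and its groups overlapped (log2 fold change 0.04, adjusted p = 0.887). The estimates for IFI16 and ADAR fell below 0, to -0.10 and -0.14, without Hermes 3A replicate 1.

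Of the oligoadenylate synthetases, which make the messenger that activates RNase L, 3 of 4 were called lower. OAS2 (ENSG00000111335, GRCh38 chr12:112978395-113011723, plus strand) had 0.807 and 1.01 CPM in 501Mel cells and 62.2, 147 and 172 CPM in Hermes 3A cells. Between the lines OAS2 differed more than any other member except XAF1 (log2 fold change -7.12, SE 0.563, adjusted p = 0.000139). OAS1, in the same cluster on chromosome 12, had 4.68 and 4.34 CPM in 501Mel cells and 27.9, 77.5 and 90.5 CPM in Hermes 3A cells (log2 fold change -3.85, SE 0.525, adjusted p = 0.00121). OAS3, which lies between OAS1 and OAS2, was not called, with 52.0 and 99.9 CPM in 501Mel cells and 55.8, 92.4 and 111 CPM in Hermes 3A cells. Its groups overlapped, and its estimate (log2 fold change -0.19, SE 0.353, adjusted p = 0.684) turned to 0.19 without 501Mel replicate 1. OASL, an enzyme-dead relative on the same chromosome, was near the floor in both 501Mel libraries, with 2 and 2 counts in 501Mel cells and 3, 72 and 96 counts in Hermes 3A cells. The counts summed to 4 against 171, a ratio of 32.2 after scaling for library size (95% exact counting interval 12.4 to 119.6, which covers counting error only). The first Hermes 3A library of OASL was also near the floor, so that Hermes 3A replicates 2 and 3 carried the difference (log2 fold change -5.02, SE 1.52, adjusted p = 0.0297), and the call was lost without 501Mel replicate 1 (adjusted p = 0.140) or 501Mel replicate 2 (0.115).

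The IFIT genes encode proteins that bind viral RNA with foreign 5′ ends, and lie together on chromosome 10. IFIT1 had 5.15 and 3.46 CPM in 501Mel cells and 10.4, 103 and 119.8 CPM in Hermes 3A cells (log2 fold change -4.17, SE 0.993, adjusted p = 0.0117), and the call was lost without 501Mel replicate 1 (adjusted p = 0.0622) or 501Mel replicate 2 (0.0685). IFIT2 had 1.34 and 1.14 CPM in 501Mel cells and 4.99, 9.78 and 14.7 CPM in Hermes 3A cells (log2 fold change -2.97, SE 0.518, adjusted p = 0.00332). IFIT5 differed least of those called, with 24.5 and 16.0 CPM in 501Mel cells and 42.5, 44.5 and 48.9 CPM in Hermes 3A cells (log2 fold change -1.16, SE 0.219, adjusted p = 0.00452). In these 3 genes no 501Mel library reached a Hermes 3A library. IFIT3 had 15.4 and 14.8 CPM in 501Mel cells and 15.0, 55.9 and 67.9 CPM in Hermes 3A cells. Its first Hermes 3A library was at the 501Mel level and the others stood several times higher, and it was just short of a call (log2 fold change -1.61, SE 0.569, adjusted p = 0.0504). Without Hermes 3A replicate 1 it was called (log2 fold change -2.05, adjusted p = 0.000347), as it was with RLE scaling (0.0444), without the filter on low counts (0.00468) and with DESeq2 (0.0065).

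MX1 alone was called among the 4 interferon-induced GTPases. MX1, which blocks the nucleocapsids of RNA viruses (ENSG00000157601, GRCh38 chr21:41420304-41459214, plus strand), had 2.2 and 2.88 CPM in 501Mel cells and 34.2, 131 and 132 CPM in Hermes 3A cells, a difference far above the spread within either line (log2 fold change -5.29, SE 0.673, adjusted p = 0.000914). MX2, its neighbour on chromosome 21, was low, with 5 and 11 counts in 501Mel cells and 4, 23 and 17 counts in Hermes 3A cells (adjusted p = 0.335). The guanylate-binding proteins GBP1 and GBP2, which act on pathogen-containing vacuoles, were low in both lines and not called. GBP1 had 1.21 and 1.25 CPM in 501Mel cells and 3.52, 1.2 and 1.45 CPM in Hermes 3A cells, with the first Hermes 3A library the highest of the 5 (log2 fold change -0.74, adjusted p = 0.301). GBP2 had 62 and 11 counts in 501Mel cells and 2, 15 and 6 counts in Hermes 3A cells, and its estimate was the highest of the members without reaching a call (log2 fold change 2.02, SE 0.867, adjusted p = 0.0921). One 501Mel library of GBP2 lay above all others and the second lay among the Hermes 3A libraries, and without that second library (501Mel replicate 2) the gene was called higher (log2 fold change 2.72, adjusted p = 0.0478).

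All 4 members of the ISG15 system, a ubiquitin-like modifier with its enzymes, were called lower, each with groups that did not overlap. ISG15 itself had 3.49 and 4.91 CPM in 501Mel cells and 25.7, 70.2 and 43.5 CPM in Hermes 3A cells (log2 fold change -3.47, SE 0.462, adjusted p = 0.0011). HERC6, a relative of the ligase HERC5, had 7.37 and 12.1 CPM in 501Mel cells and 24.4, 41.2 and 44.4 CPM in Hermes 3A cells (log2 fold change -1.91, SE 0.342, adjusted p = 0.00364). HERC5, the ligase that attaches ISG15, had 14.0 and 18.5 CPM in 501Mel cells and 20.3, 35.8 and 34.9 CPM in Hermes 3A cells (log2 fold change -0.90, SE 0.291, adjusted p = 0.0369). USP18, which removes ISG15 and damps signalling at the interferon receptor, had 3.52 and 6.44 CPM in 501Mel cells and 10.2, 12.7 and 11.5 CPM in Hermes 3A cells (log2 fold change -1.21, SE 0.33, adjusted p = 0.0202). Of these, HERC5 and USP18 were the least firm. HERC5 lost its call without 501Mel replicate 1 (adjusted p = 0.183), 501Mel replicate 2 (0.0588), Hermes 3A replicate 2 (0.0904) or Hermes 3A replicate 3 (0.0896). USP18 lost its call without 501Mel replicate 1 (adjusted p = 0.0843), Hermes 3A replicate 2 (0.0631) or Hermes 3A replicate 3 (0.0551). USP18 has a near-identical copy in the genome, USP41, and how reads shared between them were counted is not given in the sources used here.

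The membrane-acting effectors were also all called lower (5 of 5). IFITM3, IFITM2 and IFITM1 hinder the fusion of virus with cell membranes and lie side by side on chromosome 11. IFITM3 was the most abundant of them in both lines, with 24.8 and 13.5 CPM in 501Mel cells and 122, 185 and 201 CPM in Hermes 3A cells (log2 fold change -3.14, SE 0.344, adjusted p = 0.000486). IFITM2 (ENSG00000185201, GRCh38 chr11:307631-315272, plus strand) had 0.47 and 0.156 CPM in 501Mel cells and 27.2, 20.8 and 25.6 CPM in Hermes 3A cells, and its Hermes 3A libraries were close to each other (log2 fold change -6.25, SE 0.467, adjusted p = 0.000115). IFITM1 had 0.717 and 0.104 CPM in 501Mel cells and 1.02, 18.4 and 23.0 CPM in Hermes 3A cells, so that the first Hermes 3A library was near the first 501Mel library (log2 fold change -5.06, SE 1.41, adjusted p = 0.0215). The call for IFITM1 was lost without 501Mel replicate 1 (log2 fold change -7.06, adjusted p = 0.0559) or 501Mel replicate 2 (-4.30, 0.0973). IFITM1 and IFITM2 share 351 exon bases on the same strand (32.5% and 22.7% of each) and the family is similar in sequence, so reads may have been split between them. BST2 (tetherin), which holds budding virus at the cell surface (ENSG00000130303, GRCh38 chr19:17402939-17405648, minus strand), had 0.582 and 0.831 CPM in 501Mel cells and 3.16, 65.3 and 72.8 CPM in Hermes 3A cells. The first Hermes 3A library of BST2 was well below the others but above both 501Mel libraries (log2 fold change -6.06, SE 1.36, adjusted p = 0.00931), and the call was lost without 501Mel replicate 1 (adjusted p = 0.0687). RSAD2 (viperin), which makes a chain-terminating nucleotide, was low everywhere, with 3 and 1 counts in 501Mel cells and 11, 35 and 30 counts in Hermes 3A cells. The counts summed to 4 against 76, a ratio of 14.3 (95% exact counting interval 5.37 to 53.9), and the call (log2 fold change -3.80, SE 0.858, adjusted p = 0.00956) was lost without 501Mel replicate 2 (adjusted p = 0.0636).

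In the group of IFI genes and XAF1, 5 of 6 were called lower. IFI6, a mitochondrial protein that opposes cell death, was the most strongly expressed of the 6, with 26.7 and 51.7 CPM in 501Mel cells and 606, 1277 and 1076 CPM in Hermes 3A cells (log2 fold change -4.65, SE 0.465, adjusted p = 0.000343). The level of IFI6 in Hermes 3A cells was the highest of all members per kilobase of exon, at 1140.1 CPM per kb of all exons in GENCODE 29 and 1191 CPM per kb of its median transcript. IFI27, a related mitochondrial protein, had 0.65 and 0.935 CPM in 501Mel cells and 5.56, 35.6 and 29.2 CPM in Hermes 3A cells (log2 fold change -4.89, SE 0.855, adjusted p = 0.00337). XAF1 (ENSG00000132530, GRCh38 chr17:6755447-6775647, plus strand), an antagonist of the inhibitor of apoptosis XIAP, differed most of all members and was near the floor in both 501Mel libraries, with 3 and 2 counts in 501Mel cells and 68, 1337 and 1107 counts in Hermes 3A cells (log2 fold change -8.55, SE 1.64, adjusted p = 0.0049). The XAF1 counts summed to 5 against 2512, a ratio of 379 (95% exact counting interval 162 to 1167). IFI44L (ENSG00000137959, GRCh38 chr1:78619922-78646145, plus strand) had 0.448 and 0.052 CPM in 501Mel cells and 6.04, 21.0 and 28.2 CPM in Hermes 3A cells (log2 fold change -6.14, SE 0.992, adjusted p = 0.00245). IFI44, next to it on chromosome 1, had 2.44 and 3.38 CPM in 501Mel cells and 6.86, 21.1 and 22.0 CPM in Hermes 3A cells (log2 fold change -2.51, SE 0.541, adjusted p = 0.00783), and the call was lost without 501Mel replicate 1 (adjusted p = 0.0576). In each of these 5 genes the groups did not overlap and the first Hermes 3A library was the lowest of its line. IFI35, a partner of NMI, was not called, with 9.43 and 9.51 CPM in 501Mel cells and 15.5, 10.8 and 10.1 CPM in Hermes 3A cells (log2 fold change -0.36, adjusted p = 0.303), and there the first Hermes 3A library was the highest.

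Of the 5 other effectors, TRIM22 was called lower and ISG20 higher. TRIM22, an antiviral ubiquitin ligase (ENSG00000132274, GRCh38 chr11:5689689-5737089, plus strand), had 1.68 and 2.26 CPM in 501Mel cells and 50.3, 115 and 113 CPM in Hermes 3A cells (log2 fold change -5.56, SE 0.466, adjusted p = 0.000169). ISG20, an exonuclease of single-stranded RNA (ENSG00000172183, GRCh38 chr15:88636153-88656483, plus strand), had 16.2 and 16.1 CPM in 501Mel cells and 9.84, 4.71 and 3.8 CPM in Hermes 3A cells, and both 501Mel libraries lay above every Hermes 3A library (log2 fold change 1.4, SE 0.407, adjusted p = 0.0252). The call for ISG20 was lost without 501Mel replicate 1 (adjusted p = 0.0854), 501Mel replicate 2 (0.0794), Hermes 3A replicate 2 (0.0874) or Hermes 3A replicate 3 (0.0768). SAMHD1, which depletes the nucleotides needed for reverse transcription, had 32.9 and 42.1 CPM in 501Mel cells and 38.8, 34.3 and 36.4 CPM in Hermes 3A cells and overlapping groups (log2 fold change 0.04, adjusted p = 0.861). PARP9 and PARP14 are ADP-ribosyltransferases that lie together on chromosome 3. PARP9 had 21.6 and 24.6 CPM in 501Mel cells and 20.9, 47.9 and 44.7 CPM in Hermes 3A cells (log2 fold change -0.71, adjusted p = 0.129) and, of the alternatives tried, was called lower only without Hermes 3A replicate 1 (-1.02, adjusted p = 0.00264). PARP14 had 69.3 and 104 CPM in 501Mel cells and 78.0, 124 and 134 CPM in Hermes 3A cells and was not called in any alternative tried (log2 fold change -0.37, adjusted p = 0.302).

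**Figure D2:**
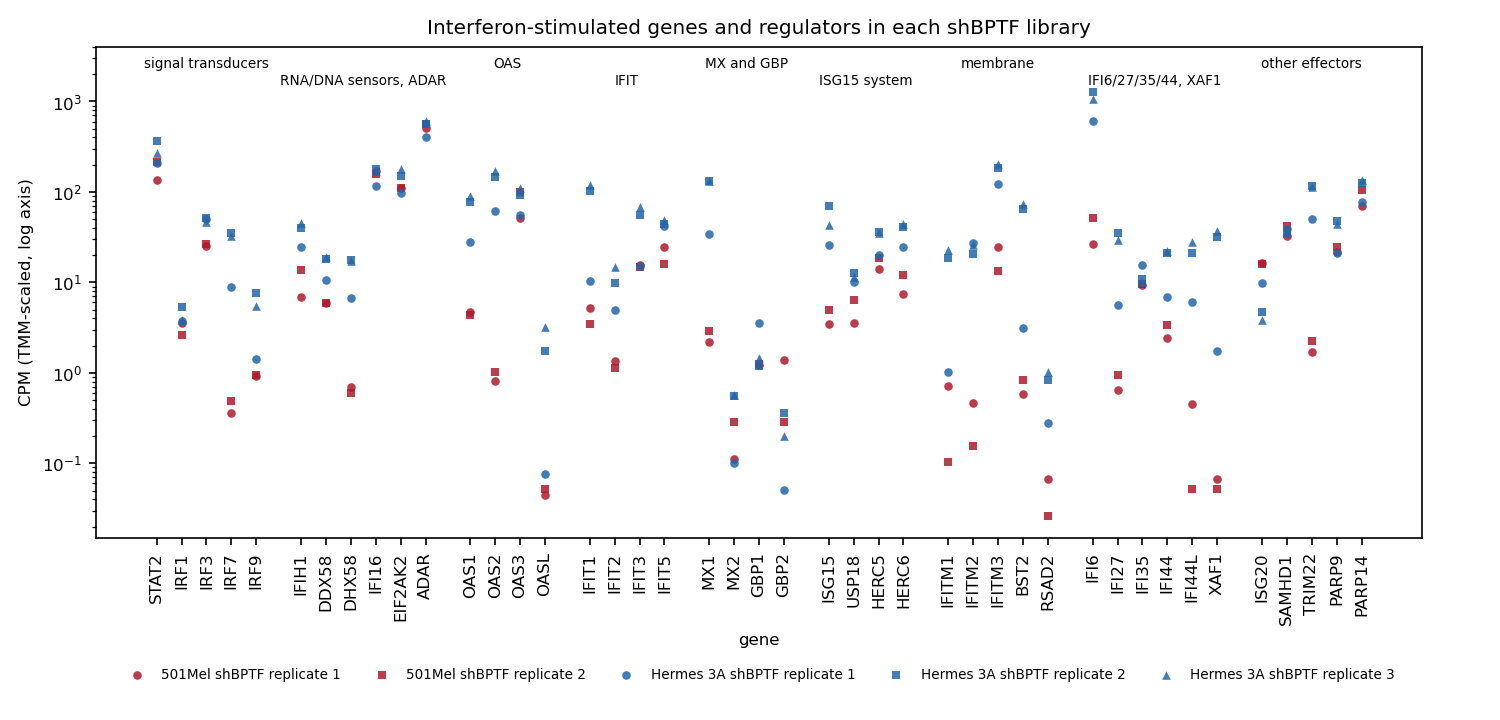
TMM-scaled levels (CPM) of the 43 members in each library, on a logarithmic axis, with genes in their functional groups. Points are single libraries of 501Mel shBPTF (2) and Hermes 3A shBPTF (3). OAS2, at 0.807 and 1.01 CPM against 62.2 to 172 CPM, and IFITM2 show the lines apart, while ADAR and IFI16 lie together.

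Within Hermes 3A cells the members varied between libraries more than genes in general did. The median SD of log2 CPM over the members was 0.71 in Hermes 3A cells and 0.29 in 501Mel cells, against 0.26 and 0.20 over all genes tested. Hermes 3A replicate 1 held the lowest of the 3 values in 37 of 43 members and the highest in 5, where the shares over all genes were 39.9% and 41.5%. The mean of replicates 2 and 3 divided by replicate 1 had a median of 2.21 over the members and 1.0 over all genes. The ratio was 32.4 for OASL, 21.9 for BST2, 20.3 for IFITM1 and 10.7 for IFIT1, with XAF1 between the last pair. It was 0.992 for IRF3, 0.912 for SAMHD1, 0.853 for IFITM2, 0.675 for IFI35, 0.433 for ISG20 and 0.377 for GBP1, so the library was not low for every interferon-stimulated gene. The labels do not set this library apart from the other Hermes 3A libraries, and its total of 41653084 counts was the highest of the 3. Without Hermes 3A replicate 1 the median log2 fold change of the members was -2.16, and STAT2, EIF2AK2, IFIT3 and PARP9 were the 4 that gained a call. In 501Mel cells, 25 of 43 members were higher in replicate 2 than in replicate 1, against 47.7% of all genes, and the libraries differed most for IFI44L, IFITM1 and GBP2, each higher in replicate 1.

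**Figure D3:**
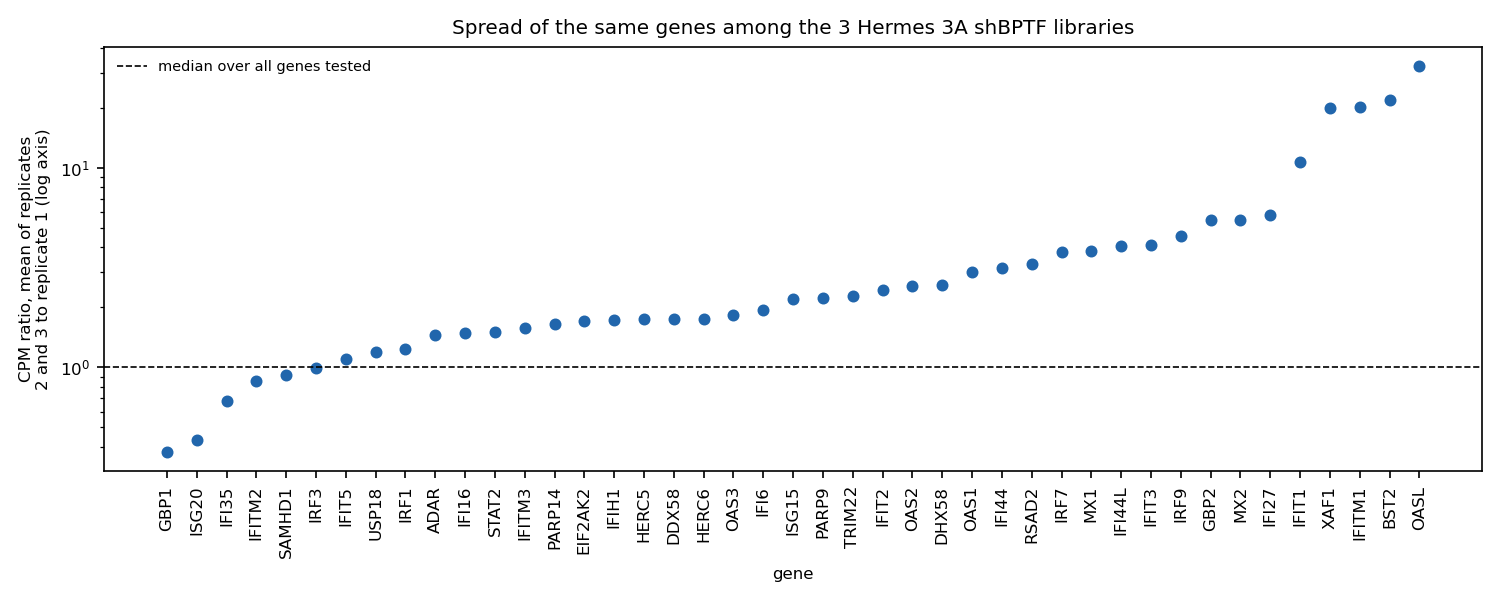
The members in Hermes 3A replicates 2 and 3 relative to replicate 1 (ratio of CPM, logarithmic axis), with a dashed line at the all-gene median of 1.0. Most members lie above the line, OASL highest at 32.4, and GBP1 lies lowest at 0.377.

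A wider list of 80 other genes of the interferon pathway was compared in the same fit. Every file listed 73 of them and 60 were tested, of which 34 were called lower in 501Mel cells (56.7%, background 24.1%), 3 higher (background 24.3%) and 23 were not called. Their median log2 fold change was -1.34, also with EPSTI1 set at its bound. Some of the 60, among them EPSTI1, SLFN11 and AIM2, passed the filter on low counts only through Hermes 3A cells. So did MYD88 (9 and 13 counts in 501Mel cells), IRF5 (5 and 6), MB21D1 (3 and 5), RTP4 (2 and 4) and CMPK2 (5 and 1). All of these could hardly be called other than lower, and they are included in the 34. With at least 10 counts required in every library, 24 of the 49 pathway genes tested were called lower, where 3119 of all genes were. The 5 interferon ligands listed in every file held 0 to 6 counts per library and none was tested. Of the 5 receptor chains tested, IL10RB, the shared chain of the type III interferon receptor, was lower (log2 fold change -1.65, SE 0.213, adjusted p = 0.000964) and IFNGR1, a chain of the type II receptor, was higher (log2 fold change 0.53, SE 0.137, adjusted p = 0.0164). The call for IFNGR1 was lost without 501Mel replicate 1 (adjusted p = 0.077), 501Mel replicate 2 (0.065), Hermes 3A replicate 2 (0.0684) or Hermes 3A replicate 3 (0.0608). The chains of the type I receptor, IFNAR1 and IFNAR2, had log2 fold changes of -0.13 (adjusted p = 0.524) and -0.52 (adjusted p = 0.0752) and were not called, though DESeq2 called IFNAR2 (adjusted p = 0.026). IFNGR2 was not called in this fit or in any alternative (-0.13, adjusted p = 0.695). Nor were the receptor kinases called, with JAK1 at -0.34 (adjusted p = 0.0863), JAK2 at 0.05 (adjusted p = 0.843) and TYK2 at -0.32 (adjusted p = 0.0963), though JAK1 was called without Hermes 3A replicate 1 (-0.40, adjusted p = 0.0493). Of the other signal genes, IRF4, a factor that also acts in pigment cells, and IRF5 were lower (log2 fold change -2.33, adjusted p = 0.00142, and -4.59, adjusted p = 0.00083), and IRF2, a repressor of interferon-stimulated genes, was not called (0.30, adjusted p = 0.293).

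Of the 10 sensing adaptors and sensors tested, 6 were called lower. MYD88, the adaptor of most Toll-like receptors, had 0.202 and 0.338 CPM in 501Mel cells and 106, 94.5 and 96.8 CPM in Hermes 3A cells, one of the widest gaps in the list (log2 fold change -8.52, SE 0.264, adjusted p = 5.91e-06). TMEM173 (STING) and MB21D1 (cGAS), the adaptor and enzyme of DNA sensing, had log2 fold changes of -3.34 (adjusted p = 5.21e-05) and -4.68 (adjusted p = 0.00301). TLR3, TICAM1 and AIM2 were also called, at -2.03 (adjusted p = 0.00117), -1.72 (adjusted p = 0.00477) and -3.81 (adjusted p = 0.00423, from 3 counts in 501Mel cells against 61 in Hermes 3A cells), whereas MAVS and TBK1, on which the RNA sensors act, were at 0.08 (adjusted p = 0.741) and 0.09 (adjusted p = 0.704) and were not. Among the 35 other interferon-stimulated genes tested, 25 were called lower and 2 higher. EPSTI1 had 0 and 0 counts in 501Mel cells and 54, 196 and 148 counts in Hermes 3A cells, at least 100.0-fold higher in Hermes 3A cells when 3 counts over both 501Mel libraries are taken as the floor. SLFN11, which makes cells sensitive to DNA damage, had 1 and 0 counts in 501Mel cells and 293, 158 and 120 counts in Hermes 3A cells, a ratio of 430.3 (95% exact counting interval 76.9 to 17025). RTP4 (log2 fold change -7.32, SE 0.739, adjusted p = 0.000357) and CMPK2 (log2 fold change -5.57, SE 0.618, adjusted p = 0.000518) completed the 5 lowest called genes. The 3 called higher were PARP12 (log2 fold change 1.54, adjusted p = 0.00341), IFNGR1 and PNPT1 (0.47, adjusted p = 0.0391). PNPT1 lost its call without Hermes 3A replicate 2 (adjusted p = 0.19) or Hermes 3A replicate 3 (0.129), and its estimate was 0.30 without 501Mel replicate 1. Its call was also lost with RLE scaling (0.0533), DESeq2 (0.0518), no filter on low counts (0.0698) or a replicate block (0.0583). PARP12 kept its call in every alternative tried. Over these 60 genes the ratio of Hermes 3A replicates 2 and 3 to replicate 1 had a median of 1.11.

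**Figure D4:**
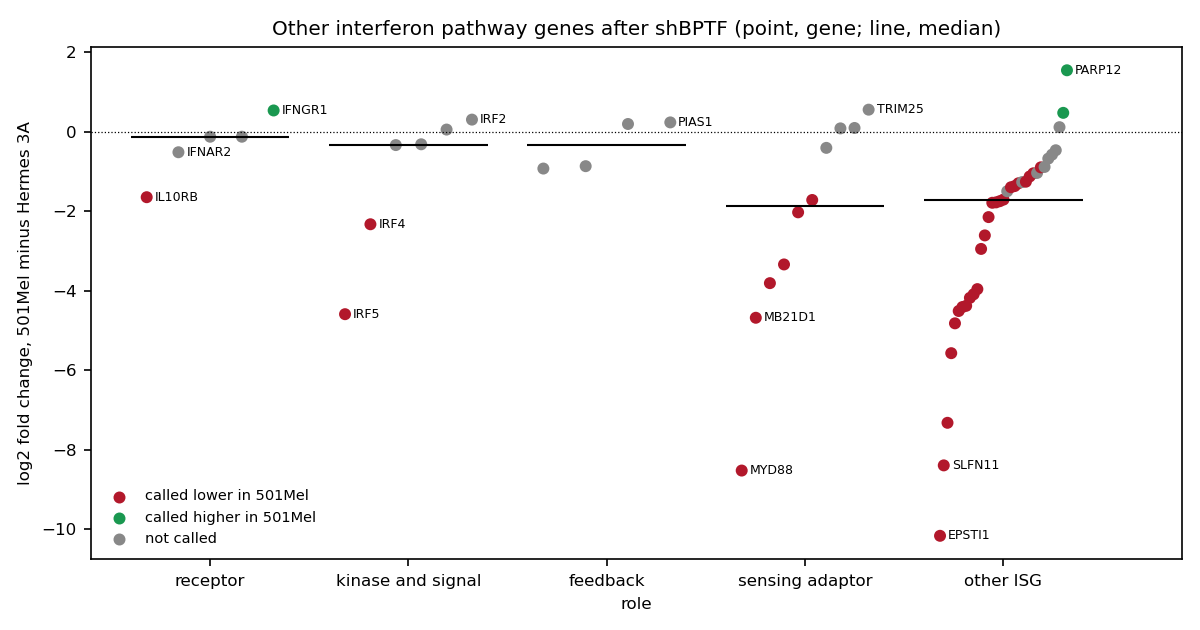
The log2 fold change, 501Mel minus Hermes 3A, of the 60 tested genes of the wider pathway list (vertical axis) by role (horizontal axis), with each point 1 gene coloured by call. MYD88, a sensing adaptor, lies at -8.52 and SLFN11, an interferon-stimulated gene, at -8.39, while the feedback genes hold no call in this fit. EPSTI1, at 0 counts in 501Mel cells, is drawn at a fitted value that is no bound.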

How the data were processed

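RNA was extracted from 501Mel (2 libraries) and Hermes 3A (3 libraries) cells carrying shBPTF, depleted of ribosomal RNA and sequenced. The deposited files hold raw read counts per gene. Per the labels, the authors used CASAVA 1.8, TopHat 1.4.1 and Bowtie 0.12.7 with the hg19 genome. The counting program, its annotation and whether it used strand are not given in the sources used here. Overlapping genes, and USP18 with its copy USP41, are therefore uncertain. Libraries also underwent normalization with a duplex-specific nuclease, which lowers abundant RNAs and can compress levels.

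Genes listed in every file were taken by Ensembl identifier, and symbols and coordinates came from GENCODE 29 (GRCh38), so coordinates are not of the authors' build. Counts were fitted with edgeR 4.0.16 (R 4.3.3) using filterByExpr, TMM scaling and a quasi-likelihood test between cell lines, two-sided, with Benjamini-Hochberg adjustment over all 17918 genes and a call at 0.05. The SE is the absolute log2 fold change divided by the square root of F. The fit was tested on simulated data with the same dispersion, 0.05, for every gene. That test does not cover genes as variable between libraries as many members were in Hermes 3A cells. Totals of 30073071 to 43032311 counts put the floor of 3 counts at 0.0672 to 0.101 CPM. Alternatives were RLE (DESeq2's size factors) and upper-quartile scaling, no filter, at least 10 counts in every library, DESeq2 1.42.0, a replicate block, leaving out each library and a minimum log2 change of 1. The members and lists were chosen with earlier results of these data known. All members could be named, and of the wider pathway list the receptors, kinases and signal genes, plus the 5 called genes with the largest change in each direction. The sensing adaptors, ligands, MAVS and TBK1 were named after their values were seen. Control shRNA libraries were not analysed here.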

Additional observations from a re-analysis of the deposited data

How the results depend on the processing

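The 28 members called lower kept a negative log2 fold change in every alternative that tested them, and 18 kept their call in all of them (19 when the minimum log2 change of 1, which IRF3 misses at -0.93, is left aside). The number of members called lower was 27 to 30 under other scaling, without the filter, with DESeq2 or with a replicate block. In those fits 3855 to 4642 of all genes were called lower, against 4316 in the main fit. With at least 10 counts in every library, 22 of 35 members tested and 3119 of all genes were called lower. The number of all genes tested with that filter is not given here. With a minimum log2 change of 1, 26 members and 3057 of all 17918 genes were called lower. Leaving out a library gave 20 to 32 members called lower and 0 to 1 called higher, and 2871 to 4595 genes called higher against 4348. The lowest of these, 20 members lower and 2871 genes higher, came without 501Mel replicate 1. The median log2 fold change of the members was -2.40 to -1.66 with a library left out. It was -1.58 with at least 10 counts in every library. Other pathway genes called higher numbered 1 to 3 with a Hermes 3A library left out, or 1 with a minimum log2 change of 1 (PARP12). Of the 14 members not called, 4 changed sign when a library was left out, with ranges of -0.10 to 0.15 for IFI16, -0.14 to 0.11 for ADAR, -0.16 to 0.20 for SAMHD1 and -0.75 to 0.19 for OAS3. For these the cause was not tested. With a replicate block, OAS3 was at 0.01, the genes called were 3855 lower and 3641 higher, and IRF9 (adjusted p = 0.0579) and IFITM1 (0.0889) lost their calls while STAT2 gained one (0.0211). Libraries with the same number come from different cell lines. Their deviations from the line means correlated at 0.104 and 0.121 over genes for the 2 shared numbers, and at -0.121 and -0.104 with those numbers crossed. The deviations of the 2 501Mel libraries mirror each other, so these values cannot settle whether the numbers pair libraries. The median level of the members was 1.36 CPM (501Mel) and 8.16 CPM (Hermes 3A) per kb of all exons, and 3.48 and 21.2 per kb of the median transcript. Members under 10 counts in a library, 8 of 43, are limited by depth.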
